A study of Mus musculus with 30 samples.

Results

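Promoter peaks were the regions that the deposited peak atlas classes as promoter, 12048 of its 38526 peaks (31.3%). The assay was ATAC-seq, where a transposase cuts and tags open DNA, and it was run on 30 libraries of mouse splenic natural killer (NK) cells kept for 5 days in culture with low doses of IL-2 and of the complex of IL-15 and its receptor chain. The knockout cells (KO) came from GzmbCrePtger2-/-Ptger4fl/fl animals, which carry a germline loss of Ptger2 and a Cre under granzyme B control that deletes floxed Ptger4. The wild-type cells (WT) came from C57BL/6J animals without Cre, so that receptor loss and Cre cannot be told apart in a difference between genotypes. Prostaglandin E2 (PGE2) was given at 100 ng/ml for 5 h, and stimulated cells were first treated for 1 h and then engaged for 4 h through NK1.1, an activating receptor. The 8 groups were KO with PGE2 and stimulation, KO stimulated, KO with PGE2 at rest, KO untreated at rest, and the same 4 in WT. Each held 4 libraries, except WT with PGE2 at rest and KO untreated at rest, which held 3 each, numbered 2 to 4. Nothing in the labels ties the libraries of a group to different animals or cultures, so each p-value reflects the spread among these libraries only, which may be technical.

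A promoter is the stretch around a transcription start where polymerase and general factors assemble, and most active promoters stay free of nucleosomes whether or not the gene responds to a signal. Enhancers farther away open and close more readily with cell state, which is why the 2 kinds of region are usually described apart. PGE2 acts on NK cells mainly through EP2 and EP4, receptors encoded by Ptger2 and Ptger4 that couple to Gs and raise cyclic AMP, and the kinase PKA then phosphorylates CREB, which binds the cyclic AMP response element (CRE). NK1.1 engagement signals through immunoreceptor adaptors to NFAT, NF-κB and AP-1, factors that turn on cytokine, chemokine and granule genes.

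Sequences of 8 promoters are shown because the results below return to them, each as the 250 bases before the start that RefSeq lists (build GRCm38.p6), read 5′ to 3′ along the gene's strand, with the motif matches named in the next sentences in capitals. Other matches of the searched motifs, such as GC boxes in Dusp1 and a CCAAT box in Rps9, stay in lower case. Gzmb (chr14:56262335-56262584, minus strand) shows 2 RUNX motifs (ACCACA, read here as TGTGGT on the opposite strand) that begin 93 and 34 bases before the start, and an AP-1 motif (TGANTCA) that begins at 58. Tigit (chr16:43664185-43664434, minus strand) shows 1 RUNX motif, at 140. Tnf (chr17:35202008-35202257, minus strand) shows a TATA box (TATAAA) at 29 and a GC box (GGGCGG, opposite strand) at 49. Ifng (chr10:118440796-118441045, plus strand) shows a TATA box at 30 and a core of the CRE (TGACG, opposite strand) at 197. Ccl1 (chr11:82179813-82180062, minus strand) shows CCAAT boxes on the opposite strand at 219 and 103. Dusp1 (chr17:26508473-26508722, minus strand) and Rps9 (chr7:3703791-3704040, plus strand) each show a full CRE (TGACGTCA), at 143 and 57. Fosl2 (chr5:32136222-32136471, plus strand) shows a GC box at 75.
Gzmb: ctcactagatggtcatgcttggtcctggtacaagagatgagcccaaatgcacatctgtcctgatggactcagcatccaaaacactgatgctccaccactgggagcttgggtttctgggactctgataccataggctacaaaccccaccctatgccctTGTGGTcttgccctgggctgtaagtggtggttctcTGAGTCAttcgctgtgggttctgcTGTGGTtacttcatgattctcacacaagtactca
Tigit: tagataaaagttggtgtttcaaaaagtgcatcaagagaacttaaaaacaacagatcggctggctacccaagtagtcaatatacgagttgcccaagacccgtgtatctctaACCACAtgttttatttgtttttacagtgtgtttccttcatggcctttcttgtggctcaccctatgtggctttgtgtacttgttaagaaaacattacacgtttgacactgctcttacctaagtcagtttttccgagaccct
Tnf: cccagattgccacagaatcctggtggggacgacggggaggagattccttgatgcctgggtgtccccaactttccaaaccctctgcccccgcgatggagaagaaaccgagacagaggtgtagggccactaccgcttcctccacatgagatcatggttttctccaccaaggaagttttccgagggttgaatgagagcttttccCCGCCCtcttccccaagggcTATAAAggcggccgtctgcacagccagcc
Ifng: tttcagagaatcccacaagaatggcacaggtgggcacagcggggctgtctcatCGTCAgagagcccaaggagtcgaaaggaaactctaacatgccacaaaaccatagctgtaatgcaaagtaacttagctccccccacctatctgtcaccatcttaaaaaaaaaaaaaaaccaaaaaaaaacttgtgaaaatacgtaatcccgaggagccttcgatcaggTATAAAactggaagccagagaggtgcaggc
Ccl1: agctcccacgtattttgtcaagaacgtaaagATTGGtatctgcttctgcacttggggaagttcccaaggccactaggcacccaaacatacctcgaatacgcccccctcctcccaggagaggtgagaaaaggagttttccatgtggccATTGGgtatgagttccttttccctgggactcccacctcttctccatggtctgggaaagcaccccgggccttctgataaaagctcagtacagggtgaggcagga
Dusp1: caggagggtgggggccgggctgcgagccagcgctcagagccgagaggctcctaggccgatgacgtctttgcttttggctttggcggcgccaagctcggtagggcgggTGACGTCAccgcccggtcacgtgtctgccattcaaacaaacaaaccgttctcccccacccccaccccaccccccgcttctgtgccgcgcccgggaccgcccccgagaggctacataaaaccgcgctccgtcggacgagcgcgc
Rps9: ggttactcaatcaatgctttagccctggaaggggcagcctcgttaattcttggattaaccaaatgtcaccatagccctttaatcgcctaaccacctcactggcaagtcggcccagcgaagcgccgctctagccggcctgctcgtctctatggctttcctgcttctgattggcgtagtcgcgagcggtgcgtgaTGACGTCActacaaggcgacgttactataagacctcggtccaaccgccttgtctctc
Fosl2: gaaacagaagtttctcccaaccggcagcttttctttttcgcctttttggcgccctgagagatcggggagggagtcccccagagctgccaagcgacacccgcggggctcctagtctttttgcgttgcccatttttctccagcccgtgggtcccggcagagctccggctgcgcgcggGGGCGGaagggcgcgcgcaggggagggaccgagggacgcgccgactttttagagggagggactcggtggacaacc
The first 5 of these genes changed strongly in at least 1 comparison below. The Fosl2 start peak rose with PGE2 at rest by about as much as Gzmb. Dusp1, Rps9 and Fosl2 are CpG-rich, with a ratio of observed to expected CpG of 0.92, 0.98 and 1.03. The ratio was 0.1 in Gzmb and 0.33 to 0.44 in the other 4. These 8 were picked, and CpG-rich promoters outside them, such as Batf3 (0.91) and Rgs16 (0.72), also changed strongly below.

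The libraries held 8444350 to 20153816 reads in peaks, and pairs of libraries within a group correlated at 0.9754 to 0.9929 across promoter peaks. Over the 12048 promoter peaks the first principal component held 55.5% of the variance and separated stimulated from resting libraries. Stimulated WT libraries with PGE2 lay between -5 and -2.7 on it, apart from stimulated untreated WT libraries at 20.2 to 26.4 and from resting untreated WT libraries at -26.5 to -23.9. Stimulated KO libraries 1 to 4 with PGE2 lay at 22.3, 21, 33.7 and 26.8, against 29.1, 25.9, 34.4 and 30.5 untreated. The ranges overlapped, but each library with PGE2 was below the untreated one of its number. On the second component, with 9.8% of the variance, KO libraries numbered 1 and 2 stood apart from those numbered 3 and 4, so the PGE2 effect, stimulation and the genotype differences in KO cells are also given with each pair of numbers alone. All 8 NK marker genes had a promoter peak in the atlas, against 2 of 10 T cell, 1 of 8 B cell, 4 of 9 myeloid and 1 of 8 erythroid marker genes. Defining genes of those lineages, among them Cd3e, Cd4, Cd8a, Cd79a, Csf1r, Lyz2 and Gata1, had none.

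**Figure D1:**
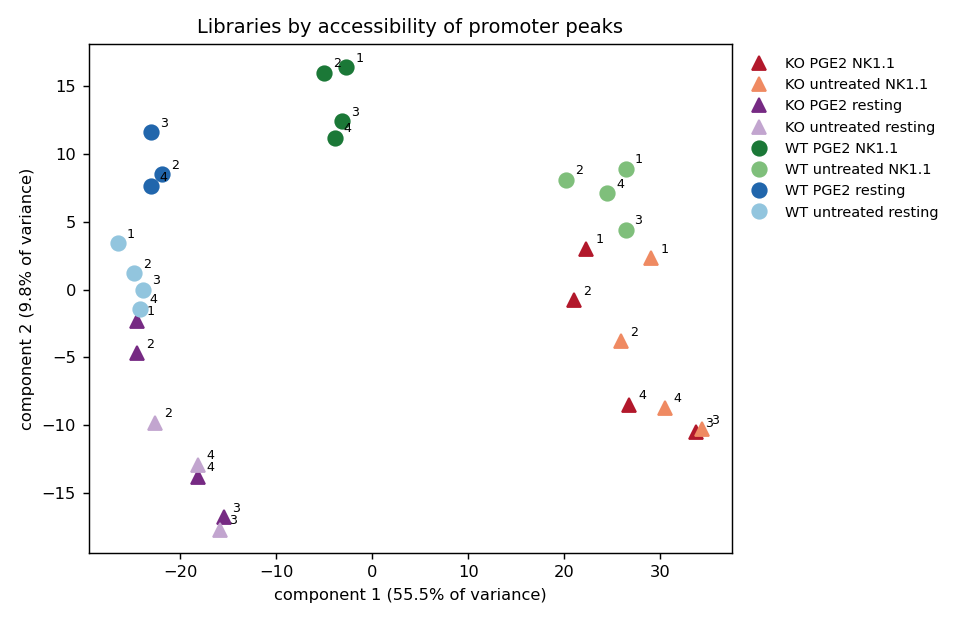
Principal components 1 (x axis, 55.5% of variance) and 2 (y axis, 9.8%) of log2 accessibility at the 12048 promoter peaks. Each point is a library with its number, triangles are KO and circles WT. Stimulated WT libraries with PGE2 (dark green, -5 to -2.7 on component 1) lie between stimulated untreated WT libraries (light green) and resting WT libraries (blue). Stimulated KO libraries with PGE2 lie near untreated ones, each lower on component 1 than the one of its number.

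Promoters carried most of the signal while being a minority of the peaks. They took 54.09 to 60.86% of the reads in peaks. The median promoter peak held 498.4 normalised reads (mean of the 30 libraries), against 112 in introns, 107 in intergenic sequence and 133.9 in exons. Per kilobase the medians were 344.4, against 122.2, 111.7 and 129.4. The mean share of reads at promoters was 55.72 ± 1.05% in stimulated WT cells with PGE2 and 57.22 ± 0.39% in stimulated untreated ones, and 57.75 ± 1.32% in resting WT cells with PGE2 against 59.05 ± 0.89% in untreated ones (SD, n = 3 or 4). Promoter peaks were 312 to 5682 bp wide, with a median of 1406 bp against 930 bp for all other peaks. They named 11466 genes, of which 10932 had 1 promoter peak and 6 had 4 or 5.

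Promoters responded less often, and by less, than the other classes of peak. A peak was called at a limma adjusted p under 0.05 over all 38525 peaks tested, and the error beside each log2 change is its SE. PGE2 in resting WT cells changed 565 promoters (4.69%), where 14.9% of all tested peaks were called. PGE2 in stimulated WT cells changed 3256 (27%, against 40.5% of all tested peaks), and stimulation of untreated WT cells changed 4969 (41.2%, against 56.3%). The gap was also there at matched levels. Among peaks with a mean of 200 to 500 normalised reads, PGE2 at rest changed 5.5% of promoters and 29.6% of other peaks in WT, PGE2 under stimulation changed 31.1% and 59.8%, and stimulation changed 42.7% and 74.5%. The median size of a called log2 change at a promoter was 0.42, 0.38 and 0.39 in these comparisons, against 0.70, 0.69 and 0.85 at intron peaks. Promoters were also the class in which PGE2 lowered more peaks than it raised in stimulated WT cells, 19.9% lower and 7.1% higher, against 19.8% lower and 28.1% higher in introns.

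**Figure D2:**
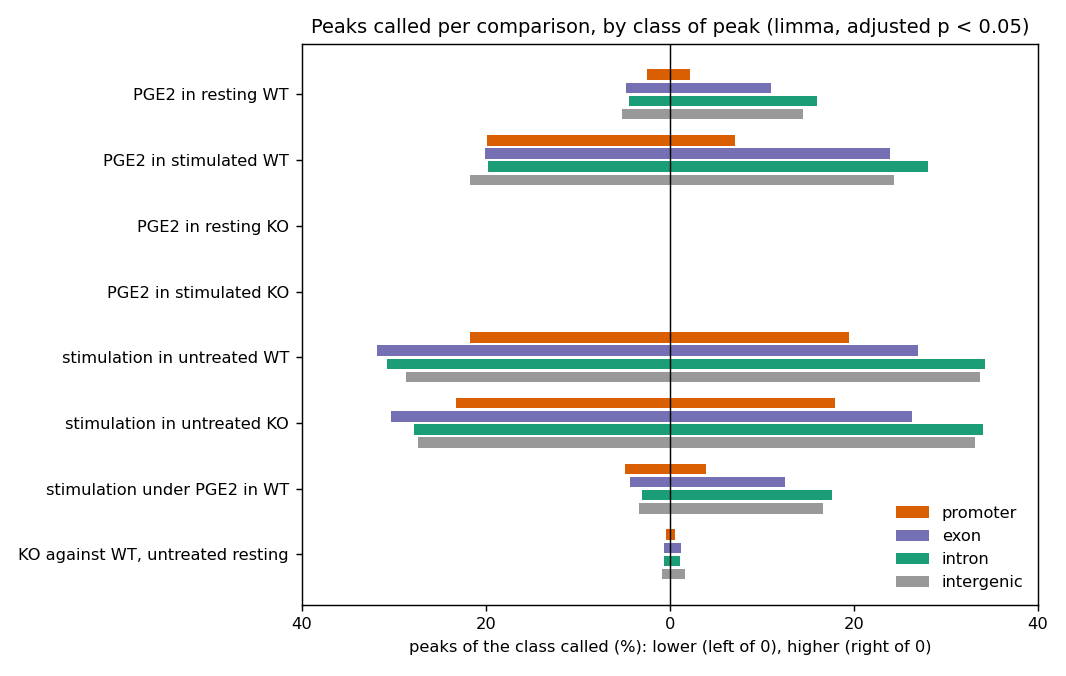
Share of the peaks of each class (x axis, %) called lower (left of 0) and higher (right of 0) in 8 comparisons (rows), by limma at an adjusted p under 0.05. Promoters (orange) show shorter bars than exon, intron and intergenic peaks in each WT comparison, except to the left for PGE2 in stimulated WT (19.9%) and for stimulation under PGE2 (4.91%); PGE2 in KO cells shows no bar for promoters.

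In bulk cells such as these, accessibility in more cells and more accessibility per cell cannot be told apart. In resting WT cells PGE2 opened a small set of promoters that included Rgs1, Fosl2, Tigit and Gzmb, and closed others that included Ccl3, Ccl4 and Ncr1. In all, 265 promoters were higher (2.2%, background over all tested peaks 10.9%) and 300 lower (2.49%, background 4.03%). Of these, 34 were past a 2-fold change, 33 of them higher. With size factors taken from promoter peaks the split was 358 higher and 196 lower, and with total reads in peaks 257 higher and 442 lower, so the balance of directions depended on the scaling. Without replicate 3 of resting WT cells with PGE2, 346 promoters were called.

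The largest rise was at a promoter peak of Rgs1, a regulator that shortens G protein signals (chr1:144250387-144250915). It held 79.3, 92.3 and 84.2 normalised reads in resting WT libraries with PGE2, against 14.1, 3.89, 14.7 and 19.1 in untreated ones. The log2 change at Rgs1 was 2.80 ± 0.39 (SE, limma adjusted p = 1.34e-06). Peaks named here and below for the largest changes were picked among called peaks whose groups did not overlap. Their separation and their call were thus set by that choice. Ccnl1, which encodes cyclin L1, a cofactor of splicing kinases, averaged 248.7 ± 6.63 with PGE2 and 59.1 ± 4.10 without (SD, n = 3 and 4), a log2 change of 2.06 ± 0.12 (limma adjusted p = 4.46e-15). Fosl2 encodes an AP-1 subunit of the Fos family and has 2 promoter peaks. The upstream one (chr5:32132602-32133948) held 597, 588 and 407 with PGE2, against 227, 187, 198 and 199 untreated. Every PGE2 library was above every untreated one, although library 4 was well below the other 2, and the log2 change was 1.36 ± 0.11 (limma adjusted p = 2.11e-11). The Fosl2 peak that holds the start shown above changed by 0.75 ± 0.10, with 2347, 3041 and 2171 against 1638, 1591, 1466 and 1266 (limma adjusted p = 1.12e-06).

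Tigit encodes an inhibitory receptor for nectin-family ligands, and its promoter (chr16:43663747-43665296, the sequence with 1 RUNX motif above) was 1 of the most evenly changed. It held 1793, 1810 and 1767 with PGE2, against 1003, 1013, 916 and 1049 without. The 3 libraries with PGE2 were nearly equal and far above the other 4, with a log2 change of 0.85 ± 0.08 (limma adjusted p = 2.55e-10). Gzmb, the granzyme B protease gene (chr14:56261712-56262972), held 898, 759 and 836 with PGE2, against 528, 534, 528 and 447 without, again with no overlap (0.71 ± 0.09, limma adjusted p = 4.61e-07). Of the 20 promoter peaks of cytotoxic granule genes 4 rose and 2 fell with a median of 0.09, where all promoters had a median of -0.03. Serpinb9, which protects the cell from its own granzyme B, rose by 1.15 ± 0.14. Prf1, the perforin gene, was not called (0.17 ± 0.08, limma adjusted p = 0.148).

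Among 24 promoter peaks of cyclic AMP and CREB target genes 5 rose and 0 fell (median 0.07). They were both Fosl2 peaks and those of Dusp1, Sik1 and Per1. Dusp1, a MAP kinase phosphatase whose sequence with a full CRE is given above, held 2483, 2436 and 2295 with PGE2, against 1957, 1839, 1805 and 1730 without. These groups stood clear of each other at a modest change of 0.39 ± 0.09 (limma adjusted p = 0.00128). Sik1, a kinase that restrains CREB coactivators, changed by 0.43 ± 0.08 (limma adjusted p = 0.000229). Tnfaip3, which encodes the NF-κB inhibitor A20, rose by 0.62 ± 0.10, one of 3 rises and 3 falls among 38 peaks of receptor activation genes.

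The deepest fall at rest was at Ccl3, the chemokine CCL3 (chr11:83646107-83649993). It held 611, 526 and 534 with PGE2, against 1219, 1366, 1216 and 1107 without, about a 2-fold gap in level with no overlap (-1.14 ± 0.13, limma adjusted p = 3.44e-08). Ccl4 fell by 0.81 on the log2 scale and Ccl5 by 0.55, so that 3 of 16 cytokine and chemokine promoter peaks fell, while that of Csf2, the GM-CSF gene, rose by 0.44 ± 0.11 (limma adjusted p = 0.00335). Ifng and Tnf were not called at rest, at -0.25 ± 0.10 and -0.23 ± 0.18. The sources used here do not say how the authors' counting treated near-identical copies, so values of the Ccl, Klra and Gzm families may mix related genes.

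Of 26 peaks of activating and inhibitory receptor genes 5 fell and 1, Tigit, rose (median -0.16), and the remaining ones were not called. Ncr1, which encodes the activating receptor NKp46, held 1324, 1140 and 1379 with PGE2, against 1867, 2053, 1766 and 1916 without, with every treated library below every untreated one (-0.57 ± 0.10, limma adjusted p = 4.44e-05). Lag3 fell by 0.49 on the log2 scale. Among 18 migration gene peaks Ccr7, a lymph node homing receptor, and Itgb7 rose by 0.55 ± 0.13 and 0.48 ± 0.12, while S1pr5, through which NK cells leave tissues, fell by 0.69 on the log2 scale, with 415, 442 and 499 against 642, 774, 696 and 813. Id2 and Ikzf1 fell and Nfil3 rose among 27 NK transcription factor peaks, and neither Tbx21 nor Eomes was called (-0.11 ± 0.11 and -0.18 ± 0.10). Of 20 interferon-stimulated gene peaks Oasl1 rose and Mx2 fell, and 1 of 20 peaks of the IL-2 and IL-15 pathway through STAT5, Jak3, fell. No peak was called among the ribosomal protein (23 peaks), glycolysis and mTOR (24), oxidative phosphorylation (19) or cell cycle (22) genes. The same was true of 11 peaks of prostanoid and Gs-coupled receptor genes. Over all promoters 4.69% were called, so in lists this short the lack of calls does not set them apart. Tubb5 was the 1 of 15 housekeeping gene peaks that was called, and it fell.

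Stimulation through NK1.1 opened the promoters of cytokine, chemokine and granule genes in untreated WT cells and closed those of interferon-stimulated, cell cycle and several receptor genes. It raised 2352 promoters (19.5%, background over all tested peaks 28.9%) and lowered 2617 (21.7%, background 27.4%). The list counts below carry no test and are to be read beside these promoter shares. The split was 2626 higher and 2413 lower with promoter size factors and 2195 and 3160 with total reads, so the balance of directions depended on the scaling. Ccl1, a chemokine gene (chr11:82179540-82180229), changed most. Its promoter held 667, 584, 446 and 433 in stimulated libraries, against 7.85, 13.6, 14.7 and 26.3 in resting ones. The log2 change was 5.10 ± 0.23 (limma adjusted p = 1.38e-20).

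Nfat5, which encodes a transcription factor of the NFAT family, had a promoter peak (chr8:107290923-107291796) that averaged 1123 ± 152 stimulated and 67.6 ± 13.4 resting (4.05 ± 0.15). Its other promoter peak had a log2 change of 0.37. All 14 called peaks among 16 of cytokine and chemokine genes rose (median 1.31, all promoters -0.03). Xcl1 rose by 1.84 ± 0.09, Csf2 by 1.84 ± 0.10, Ccl3 by 1.76 ± 0.12, Tnf by 2.04 ± 0.17 and Ifng by 1.06 ± 0.09 on the log2 scale. Ifng, which encodes interferon γ, held 897, 729, 824 and 797 stimulated, against 398, 427, 381 and 349 at rest, and Tnf held 540, 365, 365 and 316 against 102, 95.2, 98.2 and 80.0. Both separated fully by stimulation.

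Activation genes downstream of receptors (targets of AP-1, NFAT and NF-κB) had 23 rises and 2 falls among 38 peaks. Dusp2, a phosphatase induced on activation, was at 2.34 ± 0.09 and Batf3 at 2.22 ± 0.11. The Dusp2 peak lies 2348 bases from the tabulated start, with no start inside. The IL-2 and IL-15 pathway through STAT5 had 15 rises and 2 falls of 20. Cish, the STAT5 target that encodes the inhibitor CIS, held 1343, 1152, 1282 and 1235 stimulated and 348, 403, 440 and 418 at rest (1.64 ± 0.10). Granule genes had 11 rises and 3 falls of 20, among them Gzmb at 1.47 ± 0.09 and Prf1 at 0.86 ± 0.07. Cyclic AMP targets had 14 rises and 3 falls of 24, with Fosl2 at 2.35 ± 0.11, Rgs16 at 2.25 ± 0.11 and Nr4a1, an immediate early nuclear receptor gene, at 1.98 ± 0.16. The Nr4a1 peak lies 12853 bases from the tabulated start, with no start inside. Without stimulation and without PGE2 the upstream Fosl2 peak was at 203 ± 17.1, and both signals raised it.

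Ribosomal protein promoters rose in 14 of 23 peaks and fell in 1 (median 0.24), and 13 to 15 rose under the other 3 scalings. Rpsa changed by 0.47 ± 0.07. Rps9, a ribosomal protein gene whose sequence with a full CRE is given above, changed by 0.44 on the log2 scale in WT (limma adjusted p = 0.00056). Glycolysis and mTOR genes had 9 rises and 4 falls of 24, led by Hk2, the inducible hexokinase, at 1.01 ± 0.08. Prostanoid and Gs-coupled receptor genes had 4 rises and 1 fall of 11, with Adora2a, an adenosine receptor gene, at 0.92 ± 0.09 and Ptger2 itself at 0.71 ± 0.11. Housekeeping genes had 4 rises and 1 fall of 15, led by a promoter peak of Eef1a1 at 0.97 ± 0.12.

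Interferon-stimulated genes had 13 falls and 3 rises of 20 (median -0.31), among them Oasl1 at -0.69 ± 0.09 and Irf7, a master regulator of interferon genes, at -0.52 ± 0.08. Cell cycle genes had 12 falls and 2 rises of 22, which were 9 and 3 with promoter size factors and 15 and 2 with total reads, and oxidative phosphorylation genes 3 falls and 0 rises of 19. NK transcription factor genes had 7 rises and 5 falls of 27, not far from the shares over all promoters, and 7 and 9 with total reads. Receptor genes had 12 falls and 6 rises of 26, with Ncr1 at -0.61 ± 0.09, Fcgr3, the Fc receptor CD16, at -1.49 ± 0.15 and Pdcd1, which encodes PD-1, at 2.80 ± 0.24. Migration genes had 8 falls and 4 rises of 18, with Ccr2, a chemokine receptor, at -1.56 ± 0.11. Among the NK markers 5 peaks fell and 3 rose of 10. The sharpest closing was at an upstream promoter peak of Dohh, an enzyme gene of hypusine synthesis (chr10:81382060-81382748), with 52.6, 46.1, 54.7 and 45.1 stimulated against 279, 208, 274 and 254 at rest. Its 4 stimulated libraries lay far below the 4 resting ones (-2.33 ± 0.18, limma adjusted p = 1.69e-13), while the other Dohh promoter peak was not called (0.02 ± 0.08, limma adjusted p = 0.877).

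PGE2 given during stimulation lowered the promoters of cytokine, activation and IL-2 receptor pathway genes in WT cells and raised those of Tigit, Emb, Ccr2 and others. It lowered 2401 promoters (background over all tested peaks 20.4%) and raised 855 (background 20.2%). The promoter split was 1722 lower and 1457 higher with promoter size factors, and 26.3% of calls were higher as deposited against 45.8% then. The number of calls lay between 2739 and 3092 when 1 library was left out.

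The deepest fall was at Ccl1, with 52.7, 49.1, 42.8 and 68.2 in stimulated WT libraries with PGE2, against 667, 584, 446 and 433 without. Levels with PGE2 stayed above the resting ones of 7.85 to 26.3 and were far under the stimulated ones, a log2 change of -3.30 ± 0.23 (limma adjusted p = 4.21e-14). Of 16 cytokine and chemokine promoter peaks 12 fell and 0 rose (median -0.93, all promoters -0.07). Tnf held 146, 134, 88.7 and 144 with PGE2, against 540, 365, 365 and 316 without (-1.62 ± 0.17, limma adjusted p = 5.22e-10). Ifng held 434, 448, 409 and 460, against 897, 729, 824 and 797 (-0.89 ± 0.09, limma adjusted p = 1.13e-09). In both genes the groups were well apart. Ccl3 fell by 1.61, Ccl4 by 1.55, Xcl1 by 0.97, Ccl5 by 0.80 and Csf2 by 0.77 on the log2 scale.

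Receptor activation genes had 20 falls and 1 rise of 38 peaks (median -0.41), with Dusp2 at -0.90 ± 0.09, Nfkbiz at -0.90 ± 0.08 and Nfkbid at -0.88 ± 0.09, the last 2 being atypical IκB proteins. The IL-2 and IL-15 pathway had 10 falls and 1 rise of 20. Il2ra, the high-affinity IL-2 receptor chain, held 196, 156, 161 and 218 with PGE2, against 456, 413, 401 and 449 without (-1.24 ± 0.13, limma adjusted p = 8.37e-10). Cish held 618, 575, 595 and 552, against 1343, 1152, 1282 and 1235 (-1.10 ± 0.10, limma adjusted p = 3.43e-11). Each treated library was below each untreated one at both genes. Jak3, the kinase of the shared γ chain, changed by -0.89 ± 0.08.

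Granule genes had 11 falls and 4 rises of 20. Prf1 changed by -0.58 ± 0.07 and Cst7, the cystatin F gene, by -0.87 ± 0.07. Gzmb went against its rise at rest: it held 1097, 1158, 919 and 934 with PGE2, against 1544, 1373, 1348 and 1393 without (-0.47 ± 0.09, limma adjusted p = 3.82e-05). The difference between the PGE2 changes with and without stimulation was itself called at Gzmb (-1.17 ± 0.13, limma adjusted p = 2.16e-08). Cyclic AMP targets had 7 falls and 4 rises of 24, which were 6 and 5 with promoter size factors. Nr4a1 changed by -1.16 ± 0.16 and Rgs16 by -1.09 ± 0.11, while the upstream Fosl2 peak was not called (-0.19 ± 0.11). NK transcription factor genes had 3 falls and 0 rises of 27, Tbx21, the T-bet gene, at -0.33 ± 0.10 among them, and Eomes was at 0.02 ± 0.09. Prostanoid and Gs-coupled receptor genes had 5 falls and 1 rise of 11, with Ptger2 at -0.71 ± 0.11 and Ptger4 at -0.30 ± 0.10.

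Among promoters of genes needed in every cell the counts varied by list, where PGE2 lowered 19.9% and raised 7.1% of all promoters. Ribosomal protein genes had 11 falls and 0 rises of 23 (median -0.21), with 6 falls under promoter size factors and 8 under total reads, and Rpsa was at -0.44 ± 0.07. Rps9 averaged 417.9 ± 35.93 with PGE2 and 502.7 ± 42.26 without (SD, n = 4 each, -0.27, limma adjusted p = 0.0412), and its groups overlapped. Glycolysis and mTOR genes had 9 falls and 0 rises of 24, which were 7 and 2 with promoter size factors, and Hk2 was at -0.65 ± 0.08. Of 15 housekeeping gene peaks 6 fell and 0 rose. The Eef1a1 peak named above, which does not hold the tabulated Eef1a1 start, held 176, 138, 169 and 198 with PGE2, against 345, 339, 328 and 325 without, which set the treated libraries at the resting level of 160 to 179. Oxidative phosphorylation genes had 1 fall and 0 rises of 19, but 2 rises and 0 falls with promoter size factors.

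Tigit was the clearest rise that PGE2 gave with and without stimulation. In stimulated cells it held 1997, 1989, 1863 and 1856 with PGE2, against 1039, 1083, 985 and 1042 without, and stimulation alone left it at its resting level. The log2 change of 0.89 ± 0.07 (limma adjusted p = 3.19e-12) was close to the 0.85 at rest, and the difference between them was 0.04 ± 0.11 (limma adjusted p = 0.811). Emb, which encodes the adhesion protein embigin (chr13:117217478-117218352), held 370, 244, 276 and 278 with PGE2, against 125, 106, 87.2 and 72.0 without (1.59 ± 0.16, limma adjusted p = 3.54e-10). At Dohh, whose upstream peak stimulation closed, libraries with PGE2 held 147, 124, 141 and 138, against 52.6, 46.1, 54.7 and 45.1 without (1.45 ± 0.18, limma adjusted p = 4.91e-08). These libraries lay between the stimulated and the resting levels. Migration genes had 6 rises and 4 falls of 18, with Ccr2 at 0.93 ± 0.11, Itgb7 at 0.83 ± 0.11 and Icam1 at -1.02 ± 0.08. Interferon-stimulated genes had 5 rises and 1 fall of 20, with Oasl1 at 0.79 ± 0.09, and 8 rises with promoter size factors. Receptor genes had 4 rises and 6 falls of 26, which became 6 and 5 with promoter size factors, and cell cycle genes had 2 rises and 1 fall of 22.

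Markers of other cells that had a promoter peak moved as follows in this comparison. Both Cd28 peaks, counted among T cell markers, rose (0.53 ± 0.09 at the one with the smaller p), the myeloid factor gene Spi1 rose by 0.70 ± 0.08 and Cebpa fell by 0.46 on the log2 scale. The summed level of the 3 T cell marker peaks was 1618 to 1849 with PGE2 and 1231 to 1422 without, and that of the 4 myeloid marker peaks 1166 to 1319 and 1012 to 1113. The single B cell marker peak lay at 42.4 to 57.0 and 55.5 to 75.9, and the erythroid one at 59.1 to 102 and 61.7 to 84.0. Of 10 NK marker peaks 3 fell and 0 rose, and their summed level was 8179 to 9807 with PGE2 and 8951 to 10524 without. Whether other cells contributed to the called promoters was not tested.

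**Figure D3:**
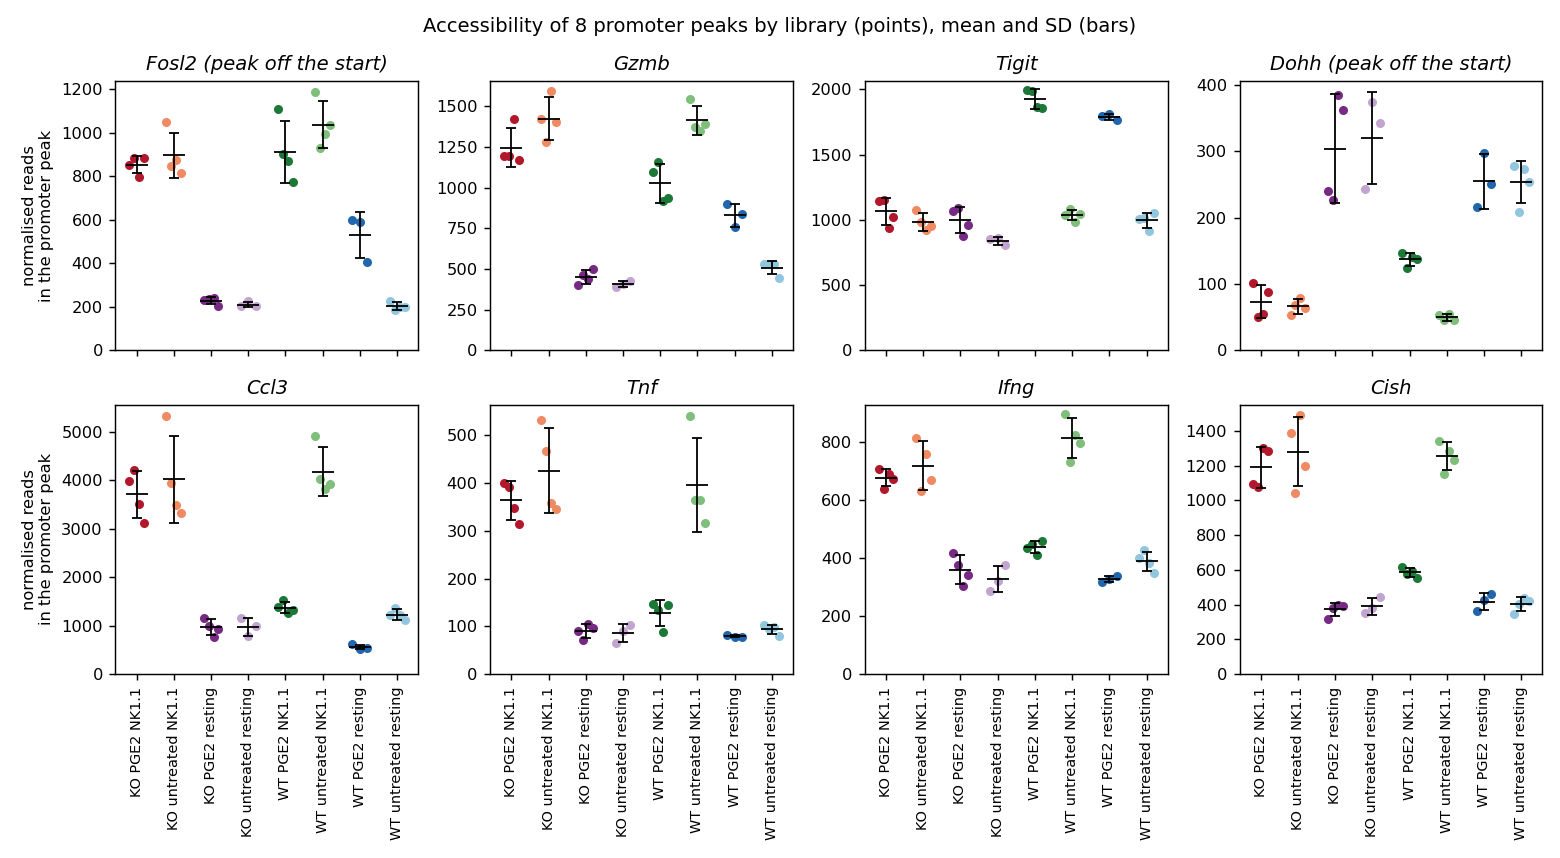
Normalised reads (y axis, from 0) in 8 promoter peaks for every library (points) of the 8 groups (x axis, KO left of WT), with the group mean and SD (bars, n = 3 or 4). Ccl3, Tnf, Ifng and Cish are lower in stimulated WT libraries with PGE2 than without it, such as 409 to 460 against 729 to 897 at Ifng, whereas KO libraries with and without PGE2 overlap; Tigit is high in both WT groups with PGE2.

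In the presence of PGE2, stimulation of WT cells changed fewer promoters. It raised 480 (3.98%, background over all tested peaks 12.7%) and lowered 591 (4.91%, background 3.80%). The split was 696 higher and 344 lower with promoter size factors. Without replicate 3 of resting WT cells with PGE2 the total was 515, and without replicate 1 of stimulated WT cells with PGE2 it was 670. Cytokine and chemokine genes had 11 rises and 0 falls of 16 (median 0.53), receptor activation genes 11 and 0 of 38, cyclic AMP targets 7 and 1 of 24, and the IL-2 and IL-15 pathway 7 and 1 of 20. Granule genes had 5 rises and 0 falls of 20, and ribosomal protein genes had 0 calls of 23. Crtam, a receptor gene of activated killer cells, rose by 2.12 ± 0.12, Nfat5 by 2.18 ± 0.16, Ccl3 by 1.29 ± 0.13, Ifng by 0.42 ± 0.10 and Cish by 0.50 ± 0.11 on the log2 scale. The test of the difference between stimulation with and without PGE2 called 1612 promoters, 520 higher and 1092 lower, where 25.3% of all tested peaks were called (10.6% higher and 14.7% lower). With total reads the split was 809 higher and 929 lower. The replicate block gave 2620 calls, although the resting WT libraries were not taken as pairs. The difference was -3.36 ± 0.33 at Ccl1, -1.21 ± 0.15 at Csf2, -1.14 ± 0.15 at Cish and -0.64 ± 0.14 at Ifng, and it was not called at Ccl3 (-0.47 ± 0.18, limma adjusted p = 0.0541).

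The promoters that PGE2 lowered in stimulated WT cells were to a large extent those that stimulation opens. To read this without shared libraries, promoters were taken from stimulation of untreated KO cells and looked up under PGE2 in stimulated WT cells. Of the 2156 promoters that stimulation raised in KO cells, PGE2 lowered 1539 in stimulated WT cells, which was 71.4% of that set and 64.1% of all promoters PGE2 lowered, and raised 31. Their median log2 change was -0.35, against -0.07 over all promoters. Of the 2800 that stimulation lowered in KO cells, PGE2 raised 643 (23.0% of them, and 75.2% of all promoters it raised) and lowered 9, with a median of 0.10. The PGE2 response at rest was read the same way in stimulated WT cells, which share no library with resting ones. Of 265 promoters raised at rest, 116 (43.8%) were raised and 45 (17.0%) lowered under stimulation, and of 300 lowered at rest, 119 (39.7%) were lowered and 20 (6.7%) raised. Over all promoters 7.1% were raised and 19.9% lowered.

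The targeted genes were checked before the KO responses. The Ptger2 promoter peak (chr14:44988181-44990885) held 131, 113 and 94.9 in resting untreated KO libraries, against 560, 633, 627 and 699 in WT ones. KO libraries of every group lay at 83.6 to 247 and WT libraries at 559.8 to 1109, and the log2 difference at rest was -2.47 ± 0.12 (limma adjusted p = 8.35e-18). The Ptger4 promoter peak (chr15:5243535-5244984) held 1148, 1037 and 968 in KO and 1177, 1103, 956 and 952 in WT, with overlapping groups (0.01 ± 0.11, limma adjusted p = 0.982). The sources used here do not say whether this peak lies within the floxed part, so it does not check the deletion.

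In KO cells PGE2 changed no promoter at rest or under stimulation by limma, where 0% and 0.0026% of all tested peaks were called. At an unadjusted p under 0.05 there were 306 promoters at rest and 368 under stimulation, and edgeR (278 and 300) and DESeq2 (275 and 306) also left 0 after adjustment. KO samples were taken as paired by library number, by a correlation rule given below. With the number as a block within each genotype and stimulation state, 0 promoters were called at rest, with 395 at an unadjusted p under 0.05. Under stimulation 1 was called, with 1048 at that unadjusted p. Of all tested peaks 0 and 31 were called with that block. The 1 promoter was Paqr7 (0.26, limma adjusted p = 0.0192), named after its value was seen. With libraries numbered 1 and 2 alone, 38 promoters were called at rest, 35 of them higher, and 3 under stimulation, and with those numbered 3 and 4 alone 0 in both. Of libraries 1 and 2, the resting untreated KO group holds library 2 only, which is then assumed to vary like the other groups.

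The promoters that PGE2 changed in WT cells were close to level in KO cells. The 265 raised at rest had a median log2 change of 0.05 in KO, against 0.51 in WT, and the 300 lowered one of -0.00, against -0.36. Under stimulation the 855 raised promoters had a median of 0.05 in KO against 0.37 in WT, and the 2401 lowered ones -0.07 against -0.39. Of the 2401, 79.2% were below 0 in KO as well, where 59.7% of all promoters were, and of the 855, 69.9% were above 0, where 40.3% of all promoters were. Of the 265 raised at rest, 64.5% were above 0 in KO, against 48.2% of all, and of the 300 lowered, 52.7% were below 0, against 51.8%. Tigit held 1071, 1093, 878 and 964 in resting KO libraries with PGE2, against 855, 860 and 804 without, a gap without overlap that was not called (0.25 ± 0.08, limma adjusted p = 1).

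The difference between the genotypes in their PGE2 change was tested directly. At rest it was called at 171 promoters, 66 higher and 105 lower in KO minus WT, where 6.18% of all tested peaks were called (1.24% higher and 4.94% lower), and at 103 without replicate 3 of resting WT cells with PGE2. With the replicate block 328 were called, although the resting WT libraries were not taken as pairs. Libraries 1 and 2 alone gave 92, with 1 library each in the resting untreated KO group and the resting WT group with PGE2, and 3 and 4 alone gave 162. Fosl2 (-1.25 ± 0.16), Tigit (-0.60 ± 0.11), Gzmb (-0.56 ± 0.13), Dusp1 (-0.40 ± 0.12) and Ccl3 (1.13 ± 0.19) were among them. Under stimulation it was called at 1238 promoters, 907 higher and 331 lower, where 20% of all tested peaks were called (9.8% higher and 10.2% lower). With promoter size factors these were 720 and 511, and with the replicate block 2102 in all. Libraries 1 and 2 alone gave 634, and 3 and 4 alone 1047. Ccl1 (3.04 ± 0.32), Tnf (1.41 ± 0.23), Cish (1.00 ± 0.14), Ifng (0.81 ± 0.13) and Tigit (-0.78 ± 0.10) were called, and Gzmb was not (0.27 ± 0.12, limma adjusted p = 0.117).

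Stimulation moved promoters of both genotypes in the same directions, and no difference between genotypes was called. It raised 2156 and lowered 2800 promoters in untreated KO cells (backgrounds 28.1% and 26.4% of all tested peaks, 54.5% together). The split was 2575 higher and 2370 lower with promoter size factors, 1907 and 3549 with total reads, and 2199 and 2036 without replicate 2 of resting untreated KO cells. Libraries 1 and 2 alone gave 1498 higher and 2538 lower, with 1 resting KO library, and 3 and 4 alone gave 2495 and 2808. Of the 2352 promoters raised in WT, 98.7% were above 0 in KO and 78.2% were called there too, which was 85.3% of the KO rises. Of the 2617 lowered in WT, 99.4% were below 0 in KO and 80.4% were called, 75.1% of the KO falls. The difference between genotypes was called at 0 promoters by limma, edgeR and DESeq2, with 273, 252 and 274 at an unadjusted p under 0.05, and 0.00779% of all tested peaks were called (0.0026% higher and 0.00519% lower). With libraries numbered 1 and 2 alone, where the resting untreated KO group is 1 library, it was called at 13, and with 3 and 4 alone at 0.

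**Figure D4:**
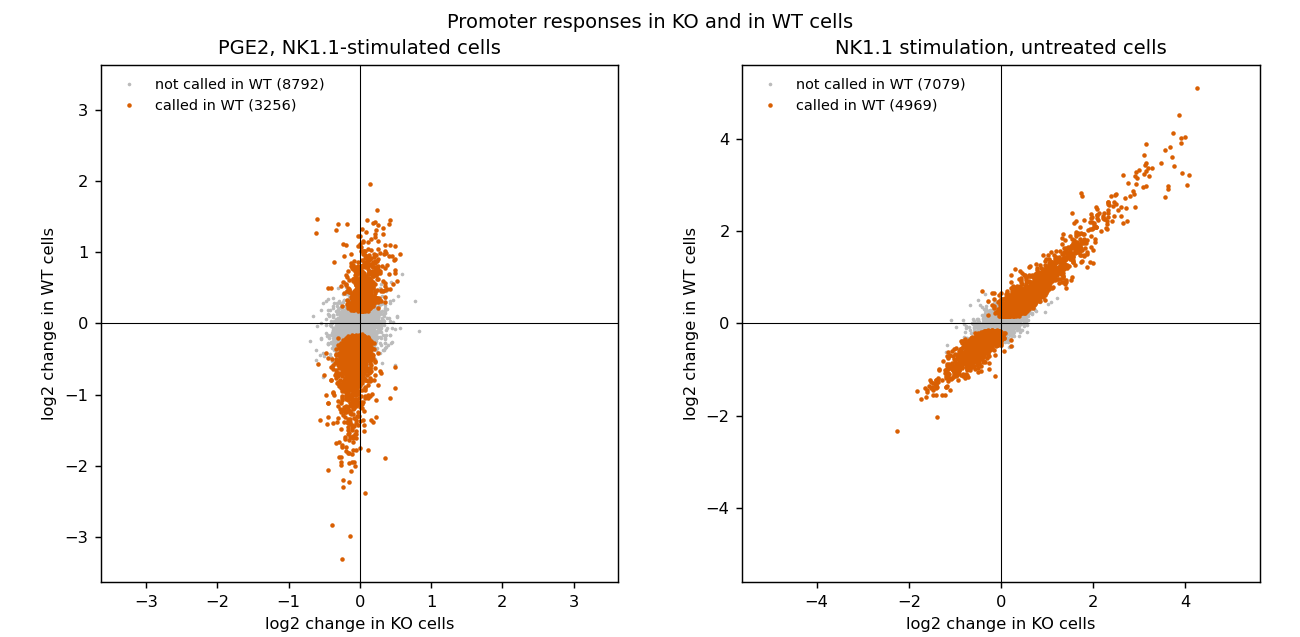
Log2 change of each promoter in KO cells (x axis) and in WT cells (y axis), on equal scales, for PGE2 under stimulation (left) and for stimulation without PGE2 (right). Orange points were called in WT (3256 and 4969) and grey points were not; the left cloud runs along the WT axis and the right one along the diagonal.

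Between untreated resting KO and WT cells 116 promoters differed (0.963%), 65 higher and 51 lower in KO, where 1.73% of all tested peaks were called (1.09% higher and 0.636% lower). The number was 42 without replicate 3 and 60 without replicate 4 of resting untreated KO cells, 57 and 61 without replicates 1 and 2 of resting untreated WT cells, and 234 without replicate 2 of the KO group. With total reads the split was 89 higher and 33 lower. It was 83 higher and 151 lower without replicate 2 of the KO group and 16 and 26 without replicate 3. It was 11 and 82 with libraries 1 and 2 alone, of which the KO group holds 1, and 159 and 281 with 3 and 4 alone, so the balance of directions rested on the libraries used. The Pnp2 promoter, which belongs to a purine nucleoside phosphorylase gene, held 3 reads over the 3 KO libraries and 656 over the 4 WT ones. Its ratio of normalised levels, KO over WT, was 0.00569 (95% interval 0.00117 to 0.0167, counting error only). Pgk1, the X-linked glycolysis gene, held 1476, 1244 and 1263 in KO against 553, 584, 602 and 662 in WT (1.14 ± 0.09, limma adjusted p = 2.49e-12). Its KO levels were above WT in all 4 conditions. Whether all of the KO reads at Pgk1 come from the X-linked copy was not tested. Tnfrsf11b, the osteoprotegerin gene, averaged 100.3 ± 22.5 in KO and 15.8 ± 3.40 in WT (SD, n = 3 and 4, 2.60 ± 0.24). Slc25a37, the mitochondrial iron importer gene, averaged 556.8 ± 57.3 and 1049 ± 45.2 (-0.92 ± 0.08).

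Differing promoters were denser on the chromosomes of the targeted genes. On chromosome 14, which holds Ptger2, 13 of 398 promoters differed (3.27%), and on chromosome 15, which holds Ptger4, 11 of 458 (2.4%), against 92 of 11192 (0.82%) elsewhere. Within 20 Mb of Ptger2 10 of 209 differed (4.78%) and within 20 Mb of Ptger4 1 of 32 (3.12%). On chromosome 14 Pnp2, Ndrg2 and Lgals3 lie 5.96, 6.92 and 2.38 Mb from Ptger2, and Slc25a37 lies 24.29 Mb from it. Gzmb, the gene whose control the Cre is under, is also on chromosome 14, 11.27 Mb from the Ptger2 promoter peak. Pnp2, Ndrg2, Lgals3 and Slc25a37 lie 5.3, 4.35, 8.89 and 13.02 Mb from Gzmb. Whether either locus relates to these differences was not tested. On chromosome 15 Matn2, Spag1, Fzd6 and Tnfrsf11b lie 29.07 to 49.04 Mb from Ptger4, outside the 20 Mb window. Of 26 receptor gene peaks 1 was higher and 3 lower, Ncr1 at -0.40 ± 0.10 and Klrb1c, the gene of NK1.1 itself, at -0.59 ± 0.13 in KO among the lower ones.

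The class label was compared with the starts that RefSeq lists. A tabulated start of the named gene lay within 8465 promoter peaks (70.3%), at a median of 185 bases from the centre, and outside 1081 (9.0%). For 2502 (20.8%) no start of that gene on that chromosome is tabulated, and their position is not known here. In 948 of the 12048 peaks (7.9%) the gene's start lay outside and no other gene's start lay inside, so the label goes against this table there. The deposited table does not define the class, and a gene may have further starts that are not tabulated.

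Peaks off the start held fewer reads and changed more often. Their median level was 177.4 normalised reads, against 560.4 for peaks over the start. PGE2 at rest changed 11.5% of them in WT and 3.8% of those over the start, PGE2 under stimulation 40.4% and 24.5%, and stimulation 54.4% and 39.6%. Peaks that hold starts on both strands, 1565 in all, changed least, at 2.1%, 21.5% and 35.9%. The larger the change, the more often the peak was off the start. Of peaks with either position known, 11.3% lay off it, but among rises with PGE2 at rest these were 17 of 92 under a log2 change of 0.5, 32 of 77 from 0.5 to 1 and 19 of 27 from 1 up (18.5%, 41.6% and 70.4%). Among rises with PGE2 under stimulation they were 14.3%, 51.2% and 81.2%, and among falls 7.6%, 22.9% and 44.2%. Among peaks with 200 to 500 normalised reads, PGE2 at rest changed 15.4% of those off the start and 4.3% of those over it. The upstream Fosl2 peak lay 3197 bases from the start, the Dohh peak 2030, the Nkg7 peak 2233, the Ccnl1 peak 2207 and the Emb peak 2658. The Dusp2, Fcgr3 and Ikzf1 peaks lay 2348, 1027 and 855 bases from the start, with no start inside. In contrast, the Gzmb, Ifng, Ccl1, Tnf and Cish peaks had the start within 8, 48, 72, 173 and 212 bases of their centre.

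**Figure D5:**
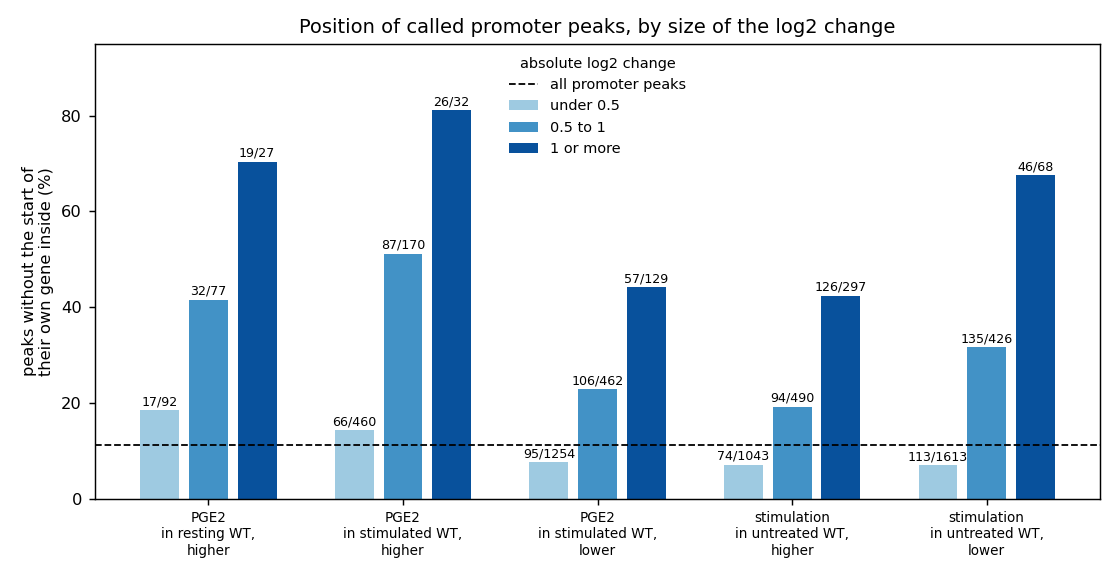
Share of called promoter peaks (y axis, %) that do not hold the tabulated start of their own gene, by size of the log2 change (shades), for 5 sets of calls in WT cells (x axis), with counts above the bars. The dashed line is the share over all promoter peaks with a tabulated start, 11.3%; the share is largest among changes of 1 or more in each set, up to 81.2% (26 of 32).

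Peaks of 1 gene did not always move together. Nkg7, a granule membrane protein gene, had an off-start peak with 234.8, 339.1 and 294.2 in resting WT libraries with PGE2 against 73.8, 82.6, 84.4 and 83.6 without (1.81 ± 0.19), while its other promoter peak fell by 0.32 on the log2 scale, at a mean of 1369 against 1711. Genes with promoter peaks called in opposite directions numbered 4 for PGE2 at rest and 17 for PGE2 under stimulation in WT, and 51 for stimulation. Rgs1 had 1.25 and -0.29 under PGE2 with stimulation, and Nkg7 1.31 and -0.61. Promoters and the other peaks of a gene also moved loosely together. Over 5850 genes with both kinds, the correlation of their mean log2 changes across genes was 0.18 for PGE2 at rest, 0.28 for PGE2 under stimulation and 0.27 for stimulation in WT, where genes are not independent replicates and both values come from the same libraries. Of 1780 genes with another peak raised by PGE2 at rest, 100 (5.6%) had a raised promoter, against 2.0% of the remaining genes. Most genes with a peak of another class that PGE2 opened thus had no promoter called higher.

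Base composition was read in the 300 bases from 250 before to 50 after a RefSeq start (GRCm38.p6), for the 8102 promoter peaks (67.2%) that hold such a window whole. Their median ratio of observed to expected CpG was 0.794 and their GC content 62.0%, against 0.384 and 52.7% over all 32851 windows in the table. Windows with a ratio under 0.6, here termed CpG-poor, were 20.8% of the promoter peaks. They were 44.6% of the 462 raised by PGE2 under stimulation and 19.9% of the 1521 lowered, 37.3% of 118 raised and 42.2% of 185 lowered by PGE2 at rest, and 23.1% of 1463 raised by stimulation. Gzmb, Tigit, Tnf, Ifng and Ccl1, whose sequences are given above, all fall in the CpG-poor class.

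Motif letters were searched on both strands of these windows. The full CRE TGACGTCA was in 3.6% of promoter peak windows (1.79% of all RefSeq windows) and its core TGACG, which every full CRE contains, in 33.6% (20.81%). Among windows raised by PGE2 at rest they were in 5.1% and 47.5%, and among those lowered in 0.5% and 18.9%. Under stimulation the order turned round, with 1.7% and 23.4% of windows raised by PGE2 and 4.5% and 37.4% of those lowered. Stimulation gave 5.5% and 40.5% of its raised and 1.7% and 26.1% of its lowered windows. The AP-1 letters TGANTCA, in 4.3% of promoter windows (7.81% of all), were in 13.6% of those raised and 3.2% of those lowered by PGE2 at rest, and in 15% of the 227 raised by stimulation under PGE2. RUNX letters ACCACA were in 12.5% (16.76% of all), with 18.6% of the windows raised and 20% of those lowered by PGE2 at rest. The GC box GGGCGG was in 70.1% (35.66% of all), the CCAAT box CCAAT in 39.2% (37.41%), the TATA box TATAAA in 6.1% (13.62%), the ETS letters CCGGAAG in 19.4% (8.86%) and the T-box letters AGGTGTGA in 0.7% (1.28%). A match describes these letters and no bound factor, and the shares carry no test.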

How the data were processed

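The submitters' processing notes name Trimmomatic 0.39, Bowtie2 2.4.1 with build mm10, MACS2 2.2.7.1 and DESeq2. The deposited table gives a signal per peak and library, which the authors made by dividing read counts by a size factor, per the file headers. The sources used here do not say how duplicate reads or the offset of the transposase cut were handled. All values were whole multiples of 1 read within a tolerance of 0.05 (largest deviation 0.0408). Depth was 8444350 to 20153816 reads in peaks, 9 of the promoter values were 0, and intervals cover counting error only.

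The test was limma 3.58.1 (R 4.3.3) with trend on log2(value + 1), which understates changes of low peaks, with 1 mean per group over all 30 libraries and 2-sided tests. A mean of 10 or more was required, which 38525 peaks and every promoter met. Adjusted p-values are Benjamini-Hochberg over all tested peaks. The test was checked on simulated counts. Alternatives were edgeR 4.0.16 and DESeq2 1.42.0 on the recovered reads, other scalings, pseudocounts, filters, the replicate number as a block, and leaving out libraries.

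Library numbers were taken as pairs where each pair's deviations correlated above 0.1. That held for PGE2 in stimulated WT (0.21 to 0.29), resting KO (0.20 to 0.36) and stimulated KO cells (0.32 to 0.58), not in resting WT cells (0.07 to 0.17). Other numbers could correlate as well. Resting KO library 4 had 0.20 with its own and 0.20 with another number, stimulated KO library 2 had 0.32 and 0.35, and stimulated WT library 4 had 0.21 and 0.23. In resting WT cells each same-numbered value was above the highest other one. The numbers may thus not mark true pairs.

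Named promoters were, per comparison, the 8 largest rises and 8 largest falls whose libraries did not overlap and whose higher group averaged 50 or more (Gm and Rik names left out), up to 3 per gene list by p, and a fixed set of genes. The members, the lists and these rules were chosen with earlier results of these data known. Paqr7, Per1, the second Nfat5, Nkg7 and Rgs1 peaks and the genes with opposite peaks were chosen after their values were seen.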

Additional observations from a re-analysis of the deposited data

Results flagged for a closer look

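The effect of PGE2 differed between genotypes, by the interaction test, at 171 promoters at rest and 1238 under stimulation, and the effect of PGE2 differed with stimulation at 1612 promoters in WT cells. Among the genes followed in every comparison, the difference at rest (KO minus WT) was 1.13 at Ccl3, 0.70 at Ccl4, 0.65 at Ccl5, -0.56 at Gzmb, -0.60 at Tigit, and -1.25 and -0.64 at the upstream and start peaks of Fosl2. Under stimulation it was 1.51 at Ccl3, 1.41 at Tnf, 1.39 at Ccl4, 1.06 at Nr4a1, 1.00 at Cish, 0.90 at Xcl1 and 0.81 at Ifng. It was 0.71 at Ccl5, 0.68 at Csf2, 0.55 at Ptger2, 0.44 at Prf1, -0.78 at Tigit and -1.35 at the upstream Dohh peak. Ptger2 is the gene lost from the KO germline, and its peak averaged 113.2 in resting untreated KO cells against 629.6 in WT ones. Its difference cannot be told apart from that loss. The change of the PGE2 effect with stimulation in WT cells (stimulated minus resting) was 1.45 at Dohh, -0.47 at the start peak and -1.55 at the upstream peak of Fosl2, -1.39 at Tnf, -1.24 at Nr4a1, -1.21 at Csf2, -1.17 at Gzmb, -1.14 at Cish, -0.95 at Xcl1, -0.75 at Prf1, -0.73 at Ccl4, -0.65 at Ptger2 and -0.64 at Ifng.

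A single library lay far from the other 3 of its group in 6 of 126 groups of 4 libraries, where chance gives about 1 in 20. Ccl4 had 2177 in 1 stimulated untreated WT library, against 1623 to 1671 in the others. Csf2 had 500.1 in 1 stimulated WT library with PGE2, against 433.9 to 435.1. The start peak of Fosl2 had 2232 in 1 stimulated untreated KO library, against 1863 to 1892. Gzmb had 1425 in 1 stimulated KO library with PGE2, against 1170 to 1195, and 446.7 in 1 resting untreated WT library, against 528.2 to 533.5. Nr4a1 had 314.4 in 1 stimulated untreated WT library, against 397.7 to 414.6.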

How the results depend on the processing

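Counts of called promoters stayed within 1.5 times the reported ones under the other pseudocounts, filters and scalings and under edgeR, and under the remaining settings moved as follows. Leaving out 1 library gave 346 to 538 for PGE2 in resting WT, 2739 to 3092 for PGE2 in stimulated WT, 0 to 0 for PGE2 in KO cells at rest and stimulated, 4405 to 4771 for stimulation in WT, 4235 to 4839 in KO, 515 to 1103 under PGE2, 42 to 234 for KO against WT, 103 to 209 and 1033 to 1261 for genotype by PGE2 at rest and stimulated, 1217 to 1645 for PGE2 by stimulation, and 0 to 0 for genotype by stimulation. For KO against WT, the replicate block over all groups gave 192 and DESeq2 196. A replicate block within each genotype and stimulation state, chosen after seeing the data, gave 990 for PGE2 in resting WT. There the libraries were not taken as pairs. The block gave 1 for PGE2 in stimulated KO, 328 and 2102 for genotype by PGE2 at rest and stimulated, and 2620 for PGE2 by stimulation. It changed no other count by over 1.5 times. Libraries numbered 1 and 2 alone, also chosen after seeing the data, gave 236 for PGE2 in resting WT, 38 and 3 in resting and stimulated KO, 522 for stimulation under PGE2, 92 and 634 for genotype by PGE2 at rest and stimulated, 674 for PGE2 by stimulation and 13 for genotype by stimulation. There the resting untreated KO group and the resting WT group with PGE2 are 1 library each, assumed to vary like the other groups. Those numbered 3 and 4 alone gave 1626 for stimulation under PGE2 and 440 for KO against WT. With promoters under 2500 bp the mean share of reads was 50.32% and 50.65% in stimulated KO cells with and without PGE2, 53.12% and 53.48% in resting KO, 50.88% and 52.01% in stimulated WT and 52.79% and 53.86% in resting WT. Of 481 called results at named promoters 362 kept their call under every setting run, and 1 reversed: Ndufs1 under stimulation with PGE2 was 0.05 with libraries 1 and 2 alone, against -0.29. Fewer libraries also lower the number of calls a test can make; the other causes were not tested. Another scaling moved the median of all peaks by less than 0.1 on the log2 scale. Depth limits low peaks most.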
